A study of Rattus norvegicus with 15 samples.

Results

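The genes of endoplasmic reticulum (ER) stress and of the integrated stress response were followed by RNA sequencing after x-ray exposure of brain microvascular endothelial cells (BMECs) of the rat in culture. The set held 34 genes of the 37367 gene sums in the FPKM table, chosen by name from their known roles: 11 ER chaperones and folding enzymes, 4 genes of ER-associated degradation, 4 sensors and effectors of the unfolded protein response, 5 genes of the ATF4 factor family and its feedback, and 10 ATF4 target genes. All 34 had a mean of at least 0.5 FPKM (fragments scaled to transcript length and to the mapped fragments of the library) over the 15 libraries, as did 17895 gene sums in all. The cells were primary cultures from cerebral microvessels of young Sprague-Dawley littermates, and each of 5 groups had 3 libraries. The groups were unexposed control cells cultured for 12 h, cells collected 12 h after 5 Gy or 20 Gy, and cells collected 24 h after 5 Gy or 20 Gy. The controls received every step except the x-ray dose. No unexposed culture at 24 h was analysed here, so that time after exposure and time in culture cannot be told apart in the 24 h groups. The 4 comparisons with control share the same 3 control libraries. The study's methods call the libraries of a group biological replicates. Which animals or cultures stand behind each library is not said, and p-values measure the spread between these libraries.

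When unfolded proteins gather in the ER, 3 membrane sensors respond. ATF6 and IRE1 (gene Ern1) raise the chaperones of the ER lumen, IRE1 by cutting a short intron out of the Xbp1 mRNA in the cytoplasm, and PERK (gene Eif2ak3) phosphorylates the translation factor eIF2alpha. Phosphorylated eIF2alpha slows protein synthesis while the transcription factor ATF4 is translated, and ATF4 turns on genes of amino acid supply, tRNA charging and cell death. Other kinases that sense amino acid shortage, double-stranded RNA or heme shortage feed into the same step without ER stress, which is why this branch is called the integrated stress response. The chaperones and the ATF4 targets are thus read here as 2 groups linked mainly to different branches, and the activity of the branches was not measured.

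The promoters of the members were searched for the elements that the branches are known to use. RefSeq promoters (GRCr8, 250 bases before to 50 after the start) were at hand for 29 of the 34 members. The ER stress response element, searched on both strands as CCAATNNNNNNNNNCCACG, was found in 6 of these 29, against 22 of all 33469 promoters of the same length (0.0657%). The 6 were Calr, Canx, Creld2, Hsp90b1, Hspa5 and Xbp1, that is 5 of the 8 chaperone genes with an entry and none of the 10 ATF4 targets. The C/EBP-ATF element that ATF4 binds, searched on both strands as TGATGNAA, was found in 4 of the 29, Chac1, Herpud1, Nupr1 and Trib3, against 1332 of all promoters (3.98%). Of the 10 ATF4 targets 2 had it. Slc7a5, Slc3a2, Asns and Ddit3, all called higher at 24 h after 5 Gy, had no match. The element TGACGTGG, bound by ATF6 and XBP1, was found in Hyou1 alone among the 29, against 199 of all promoters (0.595%). The windows below are printed 5′ to 3′ on the gene's own strand, with the matched letters in capitals, for the chaperone Hspa5 at chr3:38452948-38453016 (+ strand), for Xbp1 at chr14:84604533-84604601 (+ strand) and for 3 genes that stood out at 24 h, Trib3 at chr3:161275522-161275579 (- strand), Chac1 at chr3:126795939-126795996 (+ strand) and Herpud1 at chr19:10614859-10614916 (- strand). In Trib3, Chac1 and Herpud1 the match lies on the opposite strand and reads as its reverse complement. Nupr1, which also has a match, was called lower at 24 h after both doses and is not printed.
Hspa5: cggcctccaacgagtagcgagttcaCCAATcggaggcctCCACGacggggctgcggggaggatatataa
Xbp1: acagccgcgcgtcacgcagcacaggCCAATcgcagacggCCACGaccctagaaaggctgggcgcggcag
Trib3: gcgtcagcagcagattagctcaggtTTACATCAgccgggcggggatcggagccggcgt
Chac1: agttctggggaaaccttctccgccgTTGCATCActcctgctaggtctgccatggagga
Herpud1: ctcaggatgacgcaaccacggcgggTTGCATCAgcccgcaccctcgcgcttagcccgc
A match is a description of letters in this window and not a measured site, and the windows belong to a newer build than the expression table, which is on Rnor_6.0.

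The libraries held an estimated 5.44 to 7.49 aligned gigabases each, inferred from the steps between low FPKM values. The lowest estimate, for replicate 2 at 24 h after 5 Gy, was also the least well fitted, with 73.1% of steps whole within 0.1. The label of the cells was checked against markers. Of 14 endothelial markers 12 were found in the table and 10 of these had a mean under 0.5 FPKM, Cdh5, Cldn5 and Vwf among them, which reached at most 0.275, 0.0328 and 0.110 FPKM in any library. Tie1 and Emcn were listed at 0 throughout, which in this table can be a gap in assignment, since Hspa8, Qars1 and Nploc4, genes that every cell uses, were listed at 0 too. Their summed level was 2.48 to 6.63 FPKM over all libraries. The 7 fibroblast markers summed to 1798 to 1987 FPKM in control, 1437 to 1547 at 12 h after 5 Gy, 1273 to 1378 at 12 h after 20 Gy, 284 to 314 at 24 h after 5 Gy and 272 to 326 at 24 h after 20 Gy. The endothelial label is therefore not borne out by the defining markers with values above 0, and the fibroblast list moved with the groups in the same libraries that are compared here. The 7 mural cell markers, 4 of them with a mean under 0.5 FPKM, summed to 54.8 to 62.6 FPKM in control and 16.3 to 28.7 FPKM at 24 h. Of the 3 tested, 1 was called higher and 2 lower at 24 h after either dose. Microglia markers stayed under 0.302 FPKM, and oligodendrocyte markers under 1.22 FPKM. Astrocyte markers summed to 11.6 to 13.7 FPKM in control and 18.2 to 31.8 FPKM in the exposed groups, a rise of Aldh1l1 alone (9.52 FPKM in control), while Slc1a2 and S100b lay lower in every 24 h library than in any control, and Aqp4 was listed at 0. Neuron markers summed to 2.91 to 12.2 FPKM over all libraries, with Rbfox3 listed at 0. The part of these shifts in the results below was not tested. In bulk RNA, fewer cells of a type and less RNA per cell cannot be told apart.

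A gene was called when limma gave a Benjamini-Hochberg adjusted p under 0.05 over all 17895 genes and a fold change of at least 1.5, on the log2(FPKM + 1) scale, which understates the change of genes with low FPKM. Few members moved at 12 h. At 12 h after 5 Gy 1 of the 34 was called higher and 4 lower, where 4.98% of all genes were higher and 4.96% lower. At 12 h after 20 Gy 2 were higher and 4 lower, against 4.9% and 3.64% of all genes. At 24 h after 5 Gy 13 were higher and 1 lower, against 20.5% and 20.8% of all genes, and at 24 h after 20 Gy 9 were higher and 4 lower, against 17.0% and 23.3%. The median log2 difference of the 34 members was 0.02, 0.16, 0.21 and 0.05 in these 4 comparisons, and that of all genes 0.03, 0.01, -0.05 and -0.14.

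**Figure D1:**
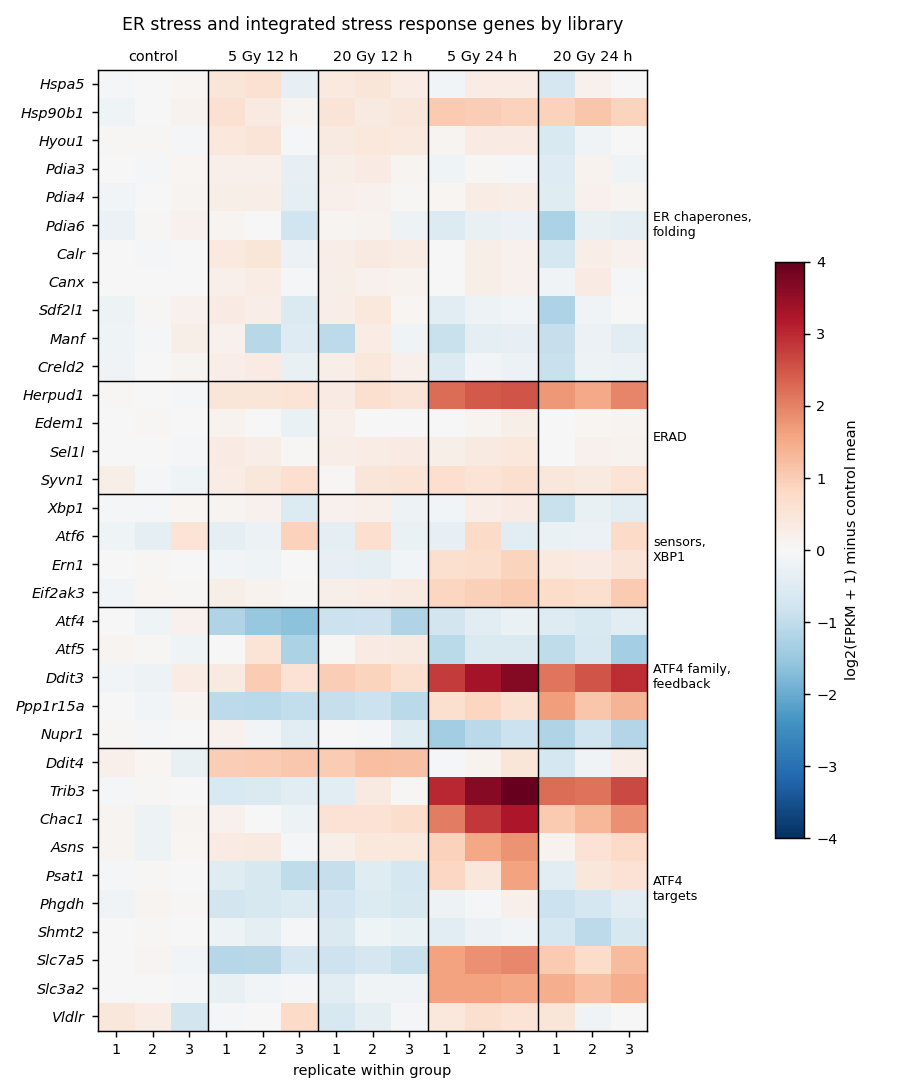
Log2(FPKM + 1) of the 34 genes (rows, grouped by role) in each of the 15 libraries (columns), minus the control mean of that gene, with red above and blue below the control mean. Herpud1, Ddit3, Trib3, Chac1, Slc7a5 and Slc3a2 are red in all 6 libraries at 24 h, the chaperone block at the top is paler, with Hsp90b1 red at 24 h and Pdia6, Sdf2l1 and Manf blue in replicate 1 at 24 h after 20 Gy, and Atf4 is blue at both 12 h groups.

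Of the ER chaperones only Hsp90b1 was called against control. Hspa5, the main chaperone of the ER lumen (BiP), had 231, 246 and 258 FPKM in the 3 control libraries, 347, 374 and 193 after 5 Gy and 323, 347 and 303 after 20 Gy at 12 h, and 227, 304 and 301 after 5 Gy and 153, 275 and 248 after 20 Gy at 24 h. At 12 h all libraries of 20 Gy lay above the controls and those of 5 Gy overlapped them. At 24 h the libraries of both doses overlapped the controls. The log2 difference of Hspa5 from control was 0.17 (95% interval -0.36 to 0.70) at 24 h after 5 Gy and -0.16 (-0.69 to 0.37) after 20 Gy. Calr, the calcium-binding lectin chaperone calreticulin, had a mean of 620 ± 12.4 FPKM in control, 736 ± 184 and 767 ± 26.5 at 12 h after 5 Gy and 20 Gy, and 679 ± 65.2 and 605 ± 199 at 24 h (SD, n = 3 here and for all means below). Its membrane-bound partner calnexin, Canx, had 105 ± 1.16 FPKM in control and 117 ± 7.97 and 109 ± 19.8 FPKM at 24 h after 5 Gy and 20 Gy.

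Of the 11 chaperone and folding genes none was called at 12 h and Hsp90b1 alone at 24 h, at both doses. Of all genes 4.98% were higher and 4.96% lower at 12 h after 5 Gy, and 4.9% and 3.64% after 20 Gy. At 24 h the shares were 20.5% and 20.8% after 5 Gy, and 17.0% and 23.3% after 20 Gy. The median log2 difference of the 11 from control was 0.10 and 0.25 at 12 h after 5 Gy and 20 Gy, and 0.13 and -0.17 at 24 h. Estimates lay above 0 for 9 and 10 of the 11 at 12 h, and for 6 and 2 at 24 h. The protein disulfide isomerases Pdia3, Pdia4 and Pdia6 had log2 differences of -0.06, 0.23 and -0.37 at 24 h after 5 Gy and -0.17, -0.07 and -0.65 after 20 Gy, with an adjusted p of 0.0513 for Pdia6 after 20 Gy by limma. Sdf2l1, a partner of Hspa5 and its co-chaperones, Manf, a secreted protein kept in the ER by calcium, Creld2, a disulfide isomerase-like protein, and Hyou1, the large exchange factor of Hspa5, differed by -0.46, -0.53, -0.45 and -0.26 at 24 h after 20 Gy, with adjusted p from 0.0735 to 0.214 by limma.

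The call of Hsp90b1, the ER form of HSP90 (GRP94), rests on a very small part of its reads. The 2 annotated transcripts that carry its name summed to 0.845 ± 0.215 FPKM in control, 2.64 ± 0.128 at 24 h after 5 Gy and 2.61 ± 0.292 after 20 Gy, log2 differences of 0.98 and 0.97. An assembled transcript of 18 exons within the same span (Rnor_6.0, chr7:27226672-27240502), which the table does not assign to a single gene, held a mean of 276 FPKM. With it Hsp90b1 had log2 differences of 0.37 and 0.10 at 24 h after 5 Gy and 20 Gy, with adjusted p of 0.21 and 0.733 by limma, and was not called in any comparison. Manf also lies at a locus shared with another gene name, Rbm15b, and its FPKM fell to 49.4 and 51.5 in single libraries of the 2 groups at 12 h.

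Among the chaperones 2 libraries lay low. The mean log2(FPKM + 1) over the 11 genes was 6.08 in replicate 3 at 12 h after 5 Gy, where the others of that group had 6.60 and 6.71, and 5.80 in replicate 1 at 24 h after 20 Gy, where the others had 6.38 and 6.50. The other 13 libraries ranged from 6.26 to 6.72. Within 20 Gy, Hyou1 and Creld2 were called lower at 24 h than at 12 h, by -0.64 and -0.74 on the log2 scale, and neither call was kept without replicate 1 at 24 h (-0.46 and -0.52).

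In ER-associated degradation, the disposal route for misfolded ER proteins, Herpud1 rose far more than the others. Herpud1, a membrane protein that recruits substrates to the ubiquitin ligase complex, had 19.6, 18.9 and 18.5 FPKM in control, 27.1, 27.0 and 28.4 after 5 Gy and 24.2, 30.0 and 27.5 after 20 Gy at 12 h, and 93.9, 108 and 114 after 5 Gy and 65.5, 55.9 and 75.8 after 20 Gy at 24 h. All 12 exposed libraries lay above the controls, and the 24 h libraries above those of 12 h. At 24 h its mean FPKM was 5.55-fold the control after 5 Gy (log2 difference 2.41, SE 0.11, adjusted p = 4.41e-09, limma) and 3.46-fold after 20 Gy (1.73, SE 0.11, adjusted p = 6.04e-08, limma). At 12 h the log2 differences of 0.51 and 0.50 fell short of the fold threshold. Syvn1, the ubiquitin ligase HRD1, was called higher at 24 h after 5 Gy (0.62) and not after 20 Gy (0.45), and without control replicate 3 the difference after 5 Gy was 0.53 and not called, nor was it with quantile normalization (0.50) or with the highest transcript alone (1.03, adjusted p = 0.371, limma). Its partner Sel1l differed by 0.34 and 0.10 and the mannosidase-like Edem1 by 0.12 and 0.06 at 24 h after 5 Gy and 20 Gy, and neither was called in any comparison.

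Of the sensors, Eif2ak3 rose at both doses and Ern1 after 5 Gy at 24 h. Eif2ak3, which encodes PERK, had 7.02 ± 0.575 FPKM in control and 14.6 ± 1.02 and 13.1 ± 2.04 FPKM at 24 h after 5 Gy and 20 Gy, log2 differences of 0.96 and 0.80 that were both called. Ern1, which encodes IRE1, had 4.79 ± 0.178 FPKM in control and 8.72 ± 0.875 and 6.75 ± 0.513 FPKM at 24 h, and was called after 5 Gy (0.74) and not after 20 Gy (0.42). The dose difference of Ern1 at 24 h was -0.33 with an adjusted p of 0.0845 by limma, so that a difference between the doses was not called. Atf6 had 6.21 to 16.5 FPKM over the libraries and a single high library in each of the 5 groups, and the assembled transcripts counted under its name took different shares of these sums.

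Xbp1 as a gene sum was not called against control, with log2 differences of 0.16 and -0.55 at 24 h after 5 Gy and 20 Gy. Its 2 forms moved apart. All of its FPKM lay in 2 assembled transcripts (Rnor_6.0), of 5 exons at chr14:85753696-85758944 and of 6 exons at chr14:85753708-85758908, while the annotated transcript was listed at 0. After their different ends are taken off, the form with 6 exons is 26 bases shorter inside. The intron that active IRE1 removes from Xbp1 mRNA is known to have 26 bases, and whether the missing bases are that intron could not be read here, since no genome of this build was used.

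The form with 6 exons made up 2.83%, 0% and 0% of Xbp1 FPKM in control, 3.75%, 1.45% and 0% after 5 Gy and 3.47%, 0% and 2.59% after 20 Gy at 12 h, and 35.6%, 53.1% and 48.4% after 5 Gy and 77.0%, 74.8% and 71.1% after 20 Gy at 24 h. The 24 h libraries of both doses lay above all others, and those of 20 Gy above those of 5 Gy. The mean share was 44.8 percentage points above control after 5 Gy and 73.4 points above after 20 Gy, and 28.6 points higher after 20 Gy than after 5 Gy at 24 h. Each of these 3 differences had an exact permutation p of 0.1 (two-sided), the smallest that 3 libraries against 3 can give.

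In the fit across 41932 transcripts, the form with 6 exons was higher at 24 h by 3.75 after 5 Gy (SE 0.39, adjusted p = 2.67e-05, limma) and by 3.73 after 20 Gy (SE 0.39, adjusted p = 2.92e-05, limma), where 12.1% and 10.6% of all transcripts were called higher. The form with 5 exons was lower by -0.68 (adjusted p = 0.0341, limma) and -2.31 (adjusted p = 1.11e-05, limma), where 12.0% and 13.6% were called lower. Between the doses at 24 h the form with 5 exons differed by -1.63 (adjusted p = 0.0028, limma), a direction called for 0.56% of transcripts, while the form with 6 exons differed by -0.02 (SE 0.39). These are FPKM that the assembler divided between overlapping forms, not counts of reads over the junction, and the comparison of forms was chosen after the data were seen.

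**Figure D2:**
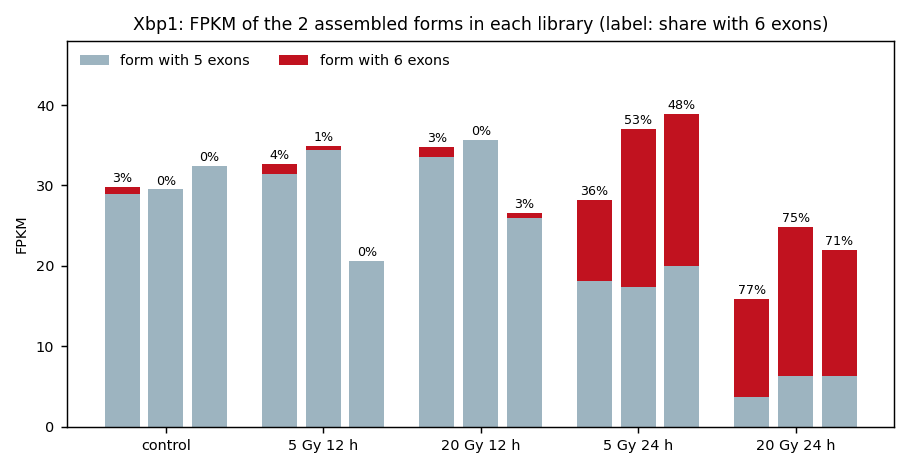
FPKM of the 2 assembled Xbp1 forms in each library, stacked (grey, 5 exons; red, 6 exons), with the share of the form with 6 exons above each bar. The red part is under 4% in the 9 control and 12 h libraries, 35.6% to 53.1% at 24 h after 5 Gy and 71.1% to 77.0% at 24 h after 20 Gy.

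In the ATF4 family, Atf4 mRNA fell at 12 h and Ddit3 mRNA rose at 24 h. Atf4, which is controlled mainly through translation, had 78.3, 70.4 and 87.9 FPKM in control, 33.5, 26.9 and 24.6 after 5 Gy and 43.1, 43.9 and 33.8 after 20 Gy at 12 h, and 47.3, 56.6 and 65.3 after 5 Gy and 55.0, 50.7 and 57.0 after 20 Gy at 24 h. All 12 exposed libraries lay below the controls. The log2 difference was -1.45 (SE 0.14, adjusted p = 3.02e-05, limma) and -0.96 (SE 0.14, adjusted p = 0.00077, limma) at 12 h, and -0.48 and -0.53 at 24 h, where it fell short of the fold threshold. Further transcripts at this locus, which it shares with the gene name Mief1, held a mean of 10.0 FPKM and are not in the sum.

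Ddit3, the death-linked factor CHOP, had 3.55, 3.25 and 4.97 FPKM in control, 5.23, 8.88 and 6.22 after 5 Gy and 8.71, 8.11 and 6.66 after 20 Gy at 12 h, and 32.9, 48.2 and 61.6 after 5 Gy and 20.4, 27.1 and 36.8 after 20 Gy at 24 h. All exposed libraries lay above the controls, and the libraries of the 2 doses overlapped at each time. At 24 h its mean was 12.1-fold the control after 5 Gy (log2 difference 3.27, SE 0.25, adjusted p = 2.99e-07, limma) and 7.16-fold after 20 Gy (2.54, SE 0.25, adjusted p = 2.86e-06, limma). At 12 h after 20 Gy it was called higher by 0.85 (adjusted p = 0.0376, limma), a call lost with an adjusted p of 0.0551 when no filter was set on low values and without any single library of either group but control replicate 3.

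Ppp1r15a, which encodes GADD34, the subunit that directs a phosphatase to eIF2alpha, reversed between the times. It had 25.8, 23.8 and 28.0 FPKM in control, 12.0, 11.6 and 12.6 after 5 Gy and 13.1, 13.9 and 11.8 after 20 Gy at 12 h, and 40.8, 48.2 and 39.9 after 5 Gy and 84.4, 57.1 and 67.2 after 20 Gy at 24 h. The 12 h libraries all lay below the controls and the 24 h libraries all above, those of 20 Gy highest. It was lower at 12 h by -1.04 and -0.95 and higher at 24 h by 0.71 and 1.38 on the log2 scale, all 4 called. With its highest transcript alone the difference at 24 h after 5 Gy was 0.27 and not called (adjusted p = 0.193, limma).

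Nupr1, a small stress-induced chromatin protein, fell at 24 h from 131 ± 5.40 FPKM to 61.1 ± 11.2 after 5 Gy and 63.5 ± 10.4 after 20 Gy (log2 differences -1.11 and -1.05, both called). Atf5, like Atf4 a factor under translational control, had 47.2 ± 4.56 FPKM in control and 28.2 ± 5.57 and 23.6 ± 6.13 FPKM at 24 h. Its difference of -0.997 after 20 Gy was called (adjusted p = 0.0263, limma), and the call was lost without any of 4 single libraries of the 2 groups, with adjusted p from 0.0594 to 0.0961, and with the highest transcript alone (adjusted p = 0.243, limma). Of these 5 genes, 2 were higher and 1 lower at 24 h after 5 Gy, where 20.5% of all genes were higher and 20.8% lower. After 20 Gy 2 were higher and 2 lower, against 17.0% and 23.3% of all genes.

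**Figure D3:**
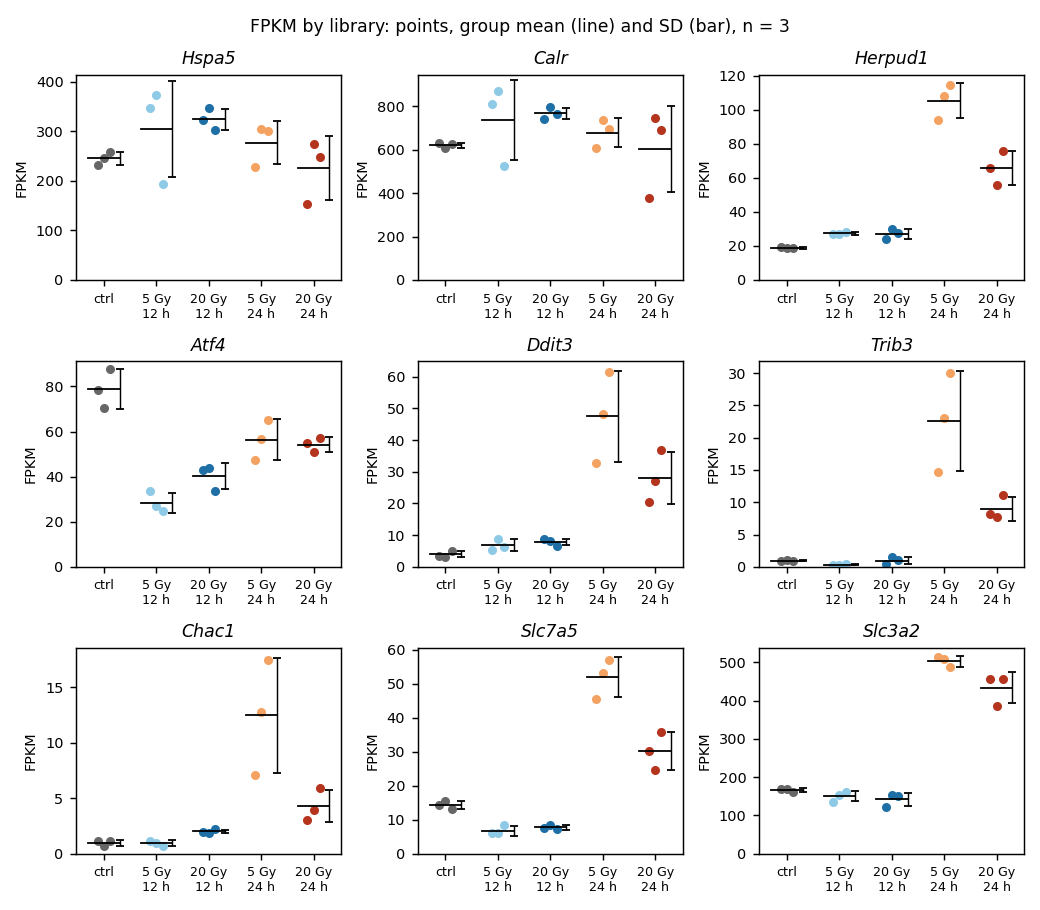
FPKM of 9 genes by group, each on its own axis from 0, with a point for each library, a line at the group mean and a bar for the SD (n = 3). Hspa5 and Calr overlap the controls at 24 h, Atf4 lies below control in every exposed library, and Herpud1, Ddit3, Trib3, Chac1, Slc7a5 and Slc3a2 lie above control in every 24 h library, with higher means after 5 Gy than after 20 Gy.

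Among the 10 ATF4 targets, 6 rose and none fell at 24 h after 5 Gy, where 20.5% of all genes were higher and 20.8% lower, and 4 rose and 2 fell after 20 Gy, where 17.0% were higher and 23.3% lower. Trib3, a pseudokinase that binds ATF4 and AKT, had 0.856, 0.978 and 0.964 FPKM in control, 0.268, 0.288 and 0.397 after 5 Gy and 0.457, 1.46 and 1.01 after 20 Gy at 12 h, and 14.6, 23.0 and 30.1 after 5 Gy and 8.17, 7.64 and 11.1 after 20 Gy at 24 h. The 24 h libraries stood clear of all others, and those of 5 Gy clear of those of 20 Gy. Its mean FPKM was 24.2-fold the control after 5 Gy (log2 difference 3.55, SE 0.23, adjusted p = 7.89e-08, limma) and 9.63-fold after 20 Gy (2.35, SE 0.23, adjusted p = 2.77e-06, limma).

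Chac1, an enzyme that breaks down glutathione, had 1.10, 0.676 and 1.11 FPKM in control, 1.18, 0.980 and 0.679 after 5 Gy and 1.93, 1.88 and 2.20 after 20 Gy at 12 h, and 7.11, 12.8 and 17.5 after 5 Gy and 3.06, 3.94 and 5.93 after 20 Gy at 24 h. As for Trib3, the 24 h libraries of 5 Gy lay above those of 20 Gy and both above control. The log2 difference from control was 2.71 (SE 0.26, adjusted p = 1.91e-06, limma) after 5 Gy and 1.41 (SE 0.26, adjusted p = 0.000483, limma) after 20 Gy.

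The 2 chains of the large neutral amino acid transporter moved in the same direction at 24 h. Its light chain Slc7a5 (LAT1) had 14.2, 15.4 and 13.1 FPKM in control, 5.94, 5.99 and 8.51 after 5 Gy and 7.51, 8.52 and 7.24 after 20 Gy at 12 h, and 45.4, 53.1 and 57.1 after 5 Gy and 30.3, 24.5 and 35.7 after 20 Gy at 24 h. It was below control in every 12 h library (log2 differences -0.98 and -0.80, both called) and above it in every 24 h library (1.79 and 1.02, both called). Its heavy chain Slc3a2 (CD98) had 166 ± 5.34 FPKM in control, 150 ± 13 and 142 ± 16.4 at 12 h after 5 Gy and 20 Gy, and 503 ± 14 and 433 ± 40.9 at 24 h, with called differences of 1.59 and 1.37 at 24 h.

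Asns and Psat1 rose after 5 Gy at 24 h, and Phgdh and Shmt2 fell after 20 Gy. Asns, asparagine synthetase, had 5.37, 4.07 and 5.19 FPKM in control, 10.0, 16.0 and 19.3 at 24 h after 5 Gy, and 5.51, 7.83 and 9.05 at 24 h after 20 Gy, and it was called after 5 Gy (1.42) and not after 20 Gy (0.51, adjusted p = 0.0584, limma). Psat1, the transaminase of serine synthesis, was likewise called after 5 Gy (0.96) and not after 20 Gy (0.19), and its dose difference at 24 h of -0.77 was not called (adjusted p = 0.17, limma). Phgdh, the first enzyme of that pathway, had 20.9 ± 2.05 FPKM in control, 13.02 ± 0.842 and 12.9 ± 1.08 at 12 h after 5 Gy and 20 Gy, and 20.7 ± 3.09 and 12.9 ± 2.13 at 24 h. Phgdh was thus called lower in every exposed group but 24 h after 5 Gy, where it differed by -0.02. Shmt2, the mitochondrial serine hydroxymethyltransferase, was called lower at 24 h after 20 Gy (-0.79) and in no other comparison. The call of Psat1 after 5 Gy was lost without replicate 3 of that group (0.64, adjusted p = 0.0693, limma), and that of Phgdh at 24 h after 20 Gy fell short of the fold threshold without replicate 1 (-0.57). With the highest transcript alone the calls of Psat1 after 5 Gy (0.45), of Shmt2 (-1.03) and of Phgdh at 12 h (-0.71 and -0.70) were lost, with adjusted p from 0.103 to 0.501 by limma.

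Ddit4 and Vldlr were not called at 24 h. Ddit4, the mTORC1 inhibitor REDD1, which p53 and glucocorticoids are also known to raise, had 42.7 ± 7.51 FPKM in control, 87.4 ± 3.38 and 94.1 ± 6.99 at 12 h after 5 Gy and 20 Gy, and 48.8 ± 9.69 and 38.2 ± 12.5 at 24 h. It was called higher at 12 h (1.03 and 1.13) and differed by 0.18 and -0.20 at 24 h. Vldlr, a lipoprotein receptor, had 9.11 to 21.7 FPKM in control, differed by 0.55 and 0.11 at 24 h and was called in no comparison.

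Set side by side, the class levels of the chaperones and the ATF4 targets parted at 24 h, but not all ATF4 targets moved alike. After 20 Gy 4 of the 10 were called higher (Trib3, Chac1, Slc3a2 and Slc7a5), 2 lower and 4 not at all. Of all genes 17.0% were higher and 23.3% lower there. The log2 differences of the 10 ran from -0.79 to 2.35 after 20 Gy and from -0.26 to 3.55 after 5 Gy. The median log2 difference of the 10 ATF4 targets was -0.18 and -0.28 at 12 h after 5 Gy and 20 Gy, and 1.19 and 0.35 at 24 h, where that of the 11 chaperone and folding genes was 0.13 and -0.17. FPKM are scaled by transcript length, so that class means of log2(FPKM + 1) can be set against each other. The chaperone mean exceeded the ATF4 target mean by 2.66 ± 0.175 in control, 2.91 ± 0.386 and 2.97 ± 0.125 at 12 h after 5 Gy and 20 Gy, and 1.45 ± 0.181 and 1.96 ± 0.320 at 24 h. All 6 libraries at 24 h, from 1.24 to 2.32, lay below all 9 others, from 2.47 to 3.18. The difference changed from control by -1.21 at 24 h after 5 Gy and by -0.70 after 20 Gy, of which the ATF4 targets gave 1.25 and 0.53 and the chaperones 0.03 and -0.17. These class values are a description, with no test, and with the unassigned transcript of Hsp90b1 the changes were -1.27 and -0.78.

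**Figure D4:**
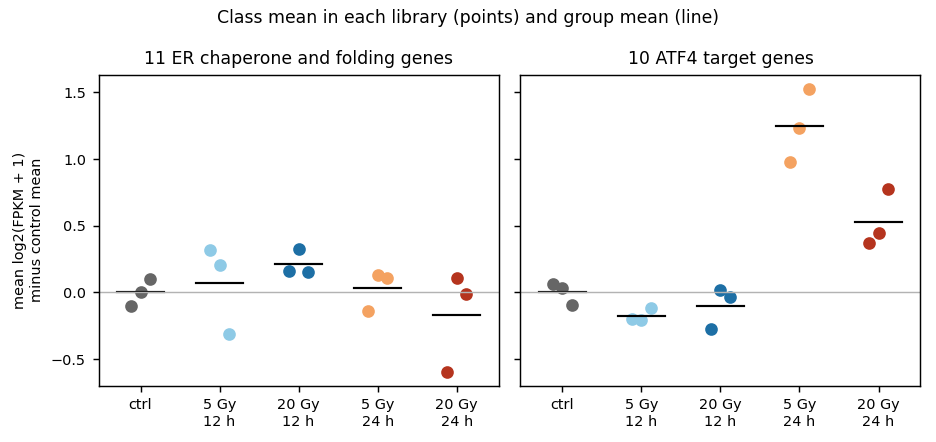
Mean log2(FPKM + 1) over the 11 chaperone and folding genes (left) and the 10 ATF4 targets (right) in each library, minus the control mean, with a line at the group mean. The ATF4 targets have group means of 1.25 and 0.53 at 24 h after 5 Gy and 20 Gy, the chaperones 0.03 and -0.17, and replicate 1 at 24 h after 20 Gy is the lowest chaperone point.

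Members were called between the doses at 24 h and not at 12 h. At 12 h no member was called between the doses, where 0.123% of all genes were called in either direction (22 genes, with 1274 at an unadjusted p under 0.05 by limma). At 24 h 6 members were lower after 20 Gy than after 5 Gy and 1 was higher, against 1.46% and 0.956% of all genes. Lower were the ATF4 targets Chac1 (-1.30, SE 0.26), Trib3 (-1.20, SE 0.23), Asns (-0.91, SE 0.22), Slc7a5 (-0.77, SE 0.15) and Phgdh (-0.65, SE 0.13), and Herpud1 (-0.68, SE 0.11), with adjusted p from 0.00509 to 0.0339 by limma. Ppp1r15a was higher by 0.67 (SE 0.13, adjusted p = 0.0113, limma). With the highest transcript alone Phgdh differed by 0.020, Ppp1r15a by 0.48 (adjusted p = 0.171, limma) and Asns by -0.73 (adjusted p = 0.427, limma), none of them called. In each of these 7 genes, called on the same values, the 3 libraries of 5 Gy did not overlap those of 20 Gy. Of all 34 members, 13 lay lower and 1 higher after 20 Gy without overlap. The share over all genes was not counted, so these counts cannot be set against a background or read as a result about the members. All 10 ATF4 targets had a lower estimate after 20 Gy, with a median of -0.71, and the 11 chaperones a median of -0.20, where the median of all genes was -0.07. The count rests in part on single libraries: it was 1 without replicate 3 at 24 h after 5 Gy, 4 without replicate 2 of that group, 3 without replicate 1 at 24 h after 20 Gy, and 5 to 8 without any other library.

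**Figure D5:**
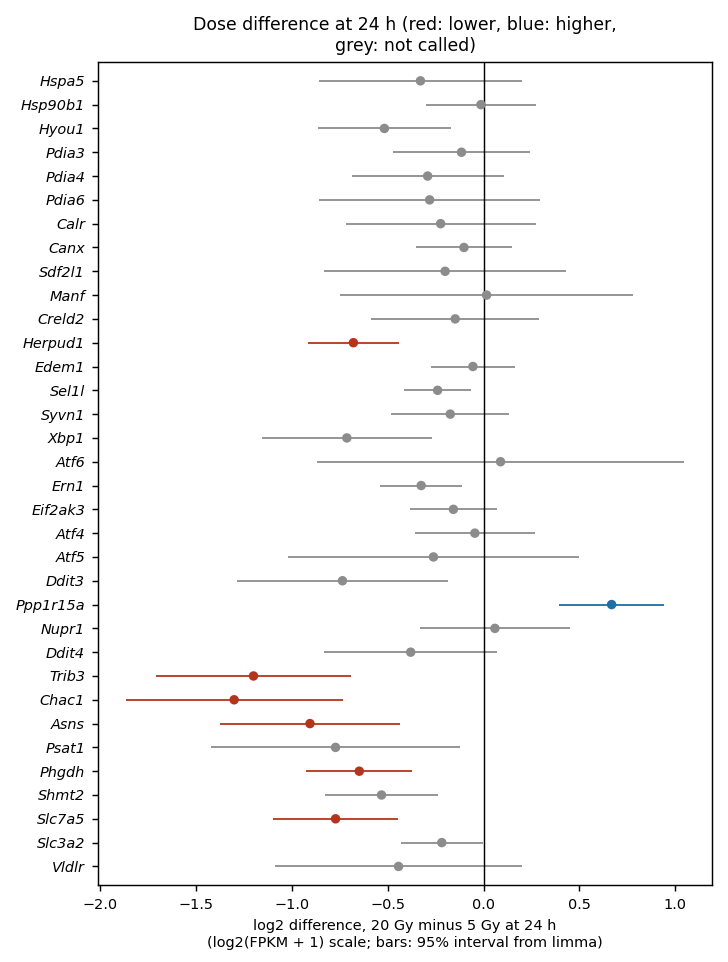
Log2 difference between 20 Gy and 5 Gy at 24 h for each of the 34 genes (points), with the 95% interval from limma (bars), in red where called lower, blue where called higher and grey where not called. The 5 ATF4 targets called and Herpud1 lie between -1.30 and -0.65, and Ppp1r15a lies at 0.67 on the other side of 0.

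From 12 h to 24 h, 14 members rose and 2 fell after 5 Gy, where 17.1% of all genes were higher and 19.3% lower, and 9 rose and 6 fell after 20 Gy, where 14.1% were higher and 22.1% lower. Of the 10 ATF4 targets 7 rose and Ddit4 fell after 5 Gy, and 5 rose and Ddit4 fell after 20 Gy. Atf4 rose by 0.97 after 5 Gy and differed by 0.43 after 20 Gy, which was not called. Nupr1 and Ddit4 fell after both doses, and Hyou1, Creld2, Xbp1 and Atf5 were called lower after 20 Gy. The call of Xbp1 (-0.62, adjusted p = 0.0218, limma) was lost without replicate 1 or 2 at 12 h or replicate 1 at 24 h after 20 Gy. Quantile normalization moved the median of all genes for 24 h against 12 h after 20 Gy from -0.15 to -0.04, and that at 24 h after 20 Gy against control from -0.14 to -0.03.

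The change over time itself differed between the doses for 2 members, where 0.52% of all genes were called. The rise of Trib3 was 4.11 after 5 Gy and 2.35 after 20 Gy, a difference of -1.75 (SE 0.33, adjusted p = 0.0391, limma), and that of Chac1 2.72 and 0.79, a difference of -1.93 (SE 0.37, adjusted p = 0.0401, limma). Both lie close to the threshold. Each of these 2 genes has 1 transcript, so that taking the highest transcript of every gene left their estimates the same. Neither was called in that fit (adjusted p = 0.065 for both, limma), in which the values of other genes had changed. The count was 0 to 4 when single libraries were left out, and 0 when any control library was left out.

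Lists of further genes of the same pathways were counted in the same way, beside 20.5% of all genes higher and 20.8% lower at 24 h after 5 Gy, and 17.0% and 23.3% after 20 Gy. Of 25 further ATF4 targets tested, 12 were called higher and 4 lower at 24 h after 5 Gy, and 7 and 4 after 20 Gy, with a median log2 difference of 0.55 and 0.35. The largest called changes after 20 Gy were those of the stress cytokine Gdf15 (5.15) and the repressor Atf3 (3.39) upward, and of the bZIP partner Cebpg (-1.14) and the glutamine carrier Slc1a5 (-1.02) downward. Gdf15 had already risen at 12 h, from 1.43 FPKM in control to 22.0 and 43.0, and Atf3 was at 4.06 FPKM after 5 Gy and 18.2 FPKM after 20 Gy at 24 h. Of 19 cytosolic aminoacyl-tRNA synthetases, which attach amino acids to tRNA, 7 were higher and 1 lower after 5 Gy, and 2 higher and 2 lower after 20 Gy. The 4 after 20 Gy were Iars1 (0.84), Cars1 (0.71), Vars1 (-0.64) and Wars1 (-0.77), listed under older symbols.

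On the ER side, 3 of 26 further folding genes were higher and 5 lower at 24 h after 5 Gy, and 1 higher and 5 lower after 20 Gy, with medians of -0.10 at both doses. Against 20.5% and 17.0% of all genes higher and 20.8% and 23.3% lower, the lower counts of the folding genes were close to the background. The XBP1-induced co-chaperone Dnajb9 rose by 0.70 after 20 Gy, and the selenoprotein Selenos (-1.26) and the disulfide isomerase Txndc5 (-1.25) fell most. Of 21 genes of the ER translocon and signal peptidase none was higher and 7 and 6 were lower after 5 Gy and 20 Gy, with Ostc (-1.07) and Sec61b (-0.94) lowest after 20 Gy. Of 20 further genes of ER-associated degradation 6 were higher and 4 lower after 5 Gy, and 5 and 4 after 20 Gy. The ubiquitin-conjugating enzyme Ube2j1 rose from 24.3 FPKM in control to 164 and 166 FPKM at 24 h, and Herpud2 by 1.24 after 20 Gy, while the lipid droplet and ERAD factor Aup1 (-2.26, SE 0.74) and the ubiquitin ligase Rnf139 (-0.86) were lowest after 20 Gy.

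Of 14 other regulators of the unfolded protein response, 7 were higher and 3 lower at 24 h after 5 Gy, and 6 and 2 after 20 Gy. The share of all genes was 20.5% higher and 20.8% lower after 5 Gy and 17.0% and 23.3% after 20 Gy. The lower count of these regulators was close to that share after 5 Gy and under it after 20 Gy. After 20 Gy the death-promoting Bcl2l11 (1.47) and the IRE1 adaptor Traf2 (1.14) rose most, and the protease that activates ATF6, Mbtps1 (-1.10), and the ATF6 relative Atf6b (-0.74) fell. Of 13 eIF2alpha kinases, eIF2B subunits and phosphatases, 4 were higher and 1 lower after 5 Gy. After 20 Gy the double-stranded RNA kinase PKR, Eif2ak2 (2.06), and Impact, an inhibitor of the amino acid sensing branch (0.83), were higher and its activator Gcn1 (-1.31) was lower. At 12 h these pathway lists held at most 5 called genes in a direction. Of the 25 further ATF4 targets tested, 2 were higher and 5 lower at 12 h after 5 Gy, against 4.98% and 4.96% of all genes. After 20 Gy 3 were higher and 2 lower, against 4.9% and 3.64%.

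Heat shock genes, cytosolic but for the mitochondrial chaperonins Hspd1 and Hspe1, rose in the same 24 h libraries, at the higher dose to higher levels. Of the 11 tested, 9 were higher after 5 Gy and 11 after 20 Gy, against 20.5% and 17.0% of all genes, and Hspa8 was listed at 0. Their summed level was 813 to 948 FPKM in control, 791 to 811 and 778 to 814 FPKM at 12 h after 5 Gy and 20 Gy, 4526 to 6118 FPKM at 24 h after 5 Gy and 15275 to 18322 FPKM at 24 h after 20 Gy. The near-identical Hspa1a and Hspa1b, between which the assignment of reads is uncertain, rose by 8.82 and 8.76 on the log2 scale after 20 Gy. The 5 ATF4 targets called between the doses at 24 h had the opposite order, while the further targets Atf3 and Gdf15 had higher means after 20 Gy, as the heat shock genes did. The part of the heat shock genes in the changes above was not tested.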

How the data were processed

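Poly-A RNA of 15 libraries was sequenced, 3 in each of 5 groups given by the labels. Per the sources, the authors aligned the reads to Rnor_6.0 with HISAT2 2.0.13 and assembled and quantified transcripts with StringTie 1.3.5, and they deposited a table of FPKM per transcript. Counts that the paper also names were not analysed here. Transcripts were summed per gene name, and unnamed transcripts were added where their locus held a single name. Loci without any name were kept as gene sums of their own. This gave 37367 gene sums and left 4738 of 85322 transcripts unassigned. The shares given for all genes are over the gene sums that passed the filter, whether named or not. Unnamed transcripts at loci that hold several names are missing from the sums, as the Hsp90b1 result shows. Depth was recovered from the smallest steps between FPKM values, of which 73.1% to 84.5% came out whole within 0.1.

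Gene sums with a mean of at least 0.5 FPKM (17895) were tested with limma 3.58.1 in R 4.3.3 on the scale of log2(FPKM + 1), with 1 mean per group, a variance trend and two-sided Benjamini-Hochberg adjusted p-values. Transcripts (41932) were fitted the same way. On simulated data for 24 h after 20 Gy, with 200 of 17895 genes changed, 96% of genes with a log2 change of 2 and 83% with a log2 change of 1 were called, none with the wrong sign, and 5 unchanged genes were called. In the data themselves 7219 genes were called in this comparison, and the simulated noise was independent between genes. These rates therefore describe the simulated setting and not the error of the real calls. Single values were compared with exact permutation tests. The members, the lists and the tests were chosen with earlier results of these data known. Named are all 34 members and, of each list, up to 2 genes with the largest called rise and fall at 24 h after 20 Gy, or all when 5 or fewer were called. Cell type markers were summed as a check. Alternatives were another pseudocount, filters, scalings, the highest transcript, the replicate number as a block and leaving out each library. Those on the transcript of Hsp90b1 and the Xbp1 forms were added after the data were seen. Same-numbered libraries of different groups did not deviate together (correlations -0.177 to 0.232, 4 of 30 above 0.1), so the numbers were not used to pair them.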

Additional observations from a re-analysis of the deposited data

Results flagged for a closer look

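For 2 members the change from 12 h to 24 h differed between the doses by the test of that difference. The rise of Trib3 was smaller after 20 Gy than after 5 Gy by a log2 difference of -1.75 (adjusted p = 0.0391, limma). That of Chac1 was smaller by a log2 difference of -1.93 (adjusted p = 0.0401, limma). At 24 h all 3 libraries of 20 Gy lay below all 3 of 5 Gy for both genes. At 12 h the 20 Gy libraries lay above those of 5 Gy for both, and no difference was called there.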

How the results depend on the processing

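Of 78 calls of 22 members over the 9 comparisons, 49 were changed by none of the alternatives run and 29 were lost under at least 1. The number of members called between the doses at 24 h (7) ranged from 1 to 8 when single libraries were left out. The number with a different change over time (2) was 0 with no filter, 1 with quantile normalization and 1 with the replicate block. It was 1 with the highest transcript of each gene, which was Xbp1 (-1.79). Trib3 and Chac1, which have 1 transcript each, were both lost there at unchanged estimates. When single libraries were left out the number was 0 to 4. The replicate block moved no other count of members by over 1.5 times. The change of the chaperone minus ATF4 target level at 24 h after 5 Gy (-1.21) was -1.03 with quantile normalization and -1.50 with the highest transcripts. With its highest transcript alone, Phgdh reversed from 0.62 to -0.12 for 24 h against 12 h after 5 Gy and from -0.65 to 0.020 for 20 Gy against 5 Gy at 24 h, and the cause was not tested. The rise in the share of the Xbp1 form with 6 exons at 24 h was 41.1 to 49.8 percentage points after 5 Gy and 72.0 to 75.0 points after 20 Gy when single libraries were left out. With 3 libraries a group and values per transcript without counts, small differences and genes of low FPKM are measured least well.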
